A study of Rattus norvegicus with 3 samples.

Results

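The actin cytoskeleton genes described here are the 2 cytoplasmic actins (ACTB and ACTG1), the β-thymosins TMSB4X and TMSB10, the profilins PFN1 and PFN2, the cofilin family CFL1, CFL2 and DSTN, and the Arp2/3 complex subunit ARPC2. They were taken by gene symbol, and all 10 are among the 12771 entries of the table, each as 1 entry. The RNA came from the supernatant left after rat spinal cord had been digested with a protease active in the cold and the cells had been spun down. Female Sprague Dawley rats aged 3 months had their cord exposed by laminectomy at T9. In the SCI group it was then struck with a force of 250 kdyne, in the No-SCI group it was not, and the cord just rostral to the injury was taken 24 h later. The labels give 2 No-SCI libraries and 1 SCI library, while the study states 2 animals per condition. Both groups thus share the laminectomy, and no unoperated cord was among the samples. The table holds 1 FPKM value per group (fragments scaled by transcript length and by library size). The spread between animals, the SD and the read number behind each value are thus unknown, and no test between the groups could be made. Every FPKM value below is the authors' group value, and each ratio is SCI over No-SCI.

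Actin exists as single subunits and as filaments that grow at one end and shrink at the other. β-Thymosins bind single subunits and hold them in reserve, while profilins pass subunits on to growing filament ends. Cofilins and destrin sever old filaments and free their subunits, and the Arp2/3 complex starts new filaments as branches on the side of existing ones. In neurons this cycle drives the growth cone, and the mRNA of β-actin is a classic example of a message that is carried into axons for local translation. The same genes are used by nearly every cell, including glia, macrophages, fibroblasts and vessel cells.

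In SCI the values of both actins, both thymosins, PFN1 and ARPC2 were higher, and those of PFN2, CFL1, CFL2 and DSTN were lower. The largest relative difference was that of TMSB10, 1.85-fold higher, and the next was that of PFN1, 1.53-fold higher. PFN2 was 1.44-fold lower and CFL1 1.43-fold lower. None of the 10 differed 2-fold, a size reached upward by 7.96% and downward by 12.1% of all entries. Since the RNA is from a mixed tissue, fewer cells or processes of a type and less RNA in each of them cannot be told apart.

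**Figure D1:**
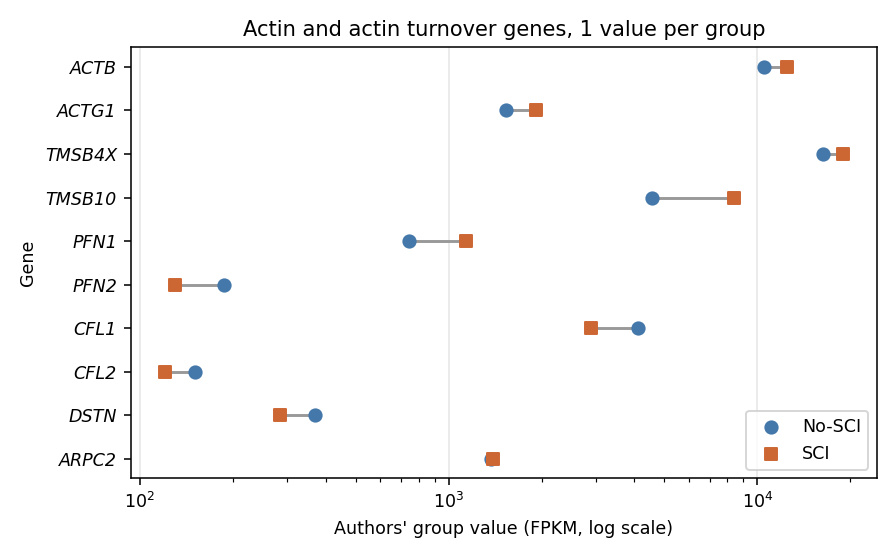
Authors' group value (FPKM, log axis) of each of the 10 genes in No-SCI (circles) and SCI (squares), with a line joining the pair. There is 1 value per group and no error bar. The values run from 120 FPKM for CFL2 in SCI to 18971 FPKM for TMSB4X in SCI, and the pair of ARPC2 lies almost on 1 point.

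The 10 genes were abundant in both groups. The lowest, CFL2, stood at percentile 89.3 of all entries in No-SCI and 87.3 in SCI. Their summed value was 39923 FPKM in No-SCI and 47722 FPKM in SCI, which is 3.18% and 3.93% of the total of the table. TMSB4X and ACTB made up most of that sum. The order of the 10 genes was TMSB4X, ACTB, TMSB10, CFL1, ACTG1, ARPC2, PFN1, DSTN, PFN2 and CFL2 in No-SCI, and it was the same in SCI. Which neighbours in that order differ beyond the spread between animals could not be tested. FPKM is scaled by transcript length, which allows levels to be set side by side, but 4 of the genes (ACTB, ACTG1, CFL2 and ARPC2) carry values of 7 significant digits, more than the 6 of a single Cuffdiff estimate. Such values occur in 58.6% of all entries, and where they are sums over several entries of a symbol, the level depends on how many were added.

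ACTB, which encodes β-actin, had 10547 FPKM in No-SCI and 12462 FPKM in SCI. The log2 ratio was 0.24, an increase of 18.2%, and its rank went from 7 to 6. ACTG1 encodes γ-actin, which is nearly identical to β-actin in protein sequence. Its value was 1536 FPKM in No-SCI and 1919 FPKM in SCI, a log2 ratio of 0.32, and its rank went from 103 to 72. Both actins were thus higher in SCI, and neither reached 1.3-fold, the smallest change that the study's methods count. Together they gave 12083 FPKM in No-SCI and 14381 FPKM in SCI. ACTB was 6.87 times as abundant as ACTG1 in No-SCI and 6.49 times in SCI, so the balance of the pair moved little.

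The muscle actins stood at far lower levels. ACTA1, the actin of skeletal muscle fibres, had 60.8 FPKM in No-SCI and 4.48 FPKM in SCI, a log2 ratio of −3.76. ACTA2, the actin of smooth muscle, had 7.33 and 8.36 FPKM, a log2 ratio of 0.19, and ACTC1, the cardiac form, had 2.45 and 1.34 FPKM. ACTG2 was not in the table. ACTB exceeded ACTA1 173-fold in No-SCI and 2780-fold in SCI. The 9 other skeletal muscle markers listed were all at least 1.3-fold lower as well, against 35.7% of all entries. The lowest of the 9 had 1.85 FPKM in No-SCI and 1.09 FPKM in SCI, near the lowest value of all entries, 1. MYH1 and MYH2 carry identical values, and with these counted 1 time the sum of the 9 was 343 FPKM in No-SCI and 30.5 FPKM in SCI. The part of muscle RNA in the value of ACTA1 was not tested.

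TMSB4X, thymosin β4, is the main actin-sequestering peptide of many cells and was the most abundant of the 10 genes. It had 16339 FPKM in No-SCI and 18971 FPKM in SCI, a log2 ratio of 0.22, with rank 6 and rank 4 among all entries. TMSB10, thymosin β10, is a close relative that is known for high levels in embryonic tissue. It had 4558 FPKM in No-SCI and 8424 FPKM in SCI, a log2 ratio of 0.89. Its rank went from 22 to 11. The log2 ratio of TMSB10 stood at percentile 90.5 of all entries, and at percentile 92.7 of the 1933 entries with a mean of at least 100 FPKM, the level above which all 10 genes lie. TMSB10 gained 3866 FPKM and TMSB4X 2631 FPKM, so the less abundant thymosin had the larger gain on the linear scale as well. The ratio of TMSB4X to TMSB10 was 3.59 in No-SCI and 2.25 in SCI. A further β-thymosin of the rat, TMSB15B2, named after its values were seen, had 141 FPKM in No-SCI and 106 FPKM in SCI, a log2 ratio of −0.42. The 3 β-thymosins therefore did not differ in the same direction.

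PFN1, the profilin of most cell types, had 745 FPKM in No-SCI and 1140 FPKM in SCI, a log2 ratio of 0.61. PFN2, a profilin known from the nervous system, had 187 FPKM in No-SCI and 130 FPKM in SCI, a log2 ratio of −0.52. The 2 genes lay on opposite sides of 1, and each was past 1.3-fold. The ratio of PFN1 to PFN2 went from 3.98 to 8.77, a shift of 1.14 on the log2 scale. This was the largest shift among the 6 within-family ratios computed here. The testis profilin PFN3 was close to the lowest value of the table, with 1.64 FPKM in No-SCI and 1.18 FPKM in SCI. Of all entries 56.3% were lower and 35.7% at least 1.3-fold lower. Neuronal markers were lower in 8 of 10 listed genes, and 6 of the 10 were at least 1.3-fold lower. Their summed value was 1889 FPKM in No-SCI and 1735 FPKM in SCI, of which GAP43 made up 1275 and 1406 FPKM. Their part in the value of PFN2 was not tested.

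CFL1, the cofilin of non-muscle cells, had 4116 FPKM in No-SCI and 2881 FPKM in SCI, a log2 ratio of −0.51, and its rank went from 25 to 44. DSTN, which encodes destrin (also called actin depolymerizing factor), had 370 FPKM in No-SCI and 285 FPKM in SCI, a log2 ratio of −0.38. DSTN was 1.2999-fold lower and so lay just short of 1.3-fold. CFL2, known as the muscle cofilin, had 150 FPKM in No-SCI and 120 FPKM in SCI, a log2 ratio of −0.32. All 3 members of the family were lower in SCI, with changes from −30.0% for CFL1 to −20.2% for CFL2. Summed, they went from 4636 to 3286 FPKM. The actins went the other way, and the ratio of the summed actins to the summed cofilins was 2.61 in No-SCI and 4.38 in SCI.

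ARPC2, one of the subunits that form the core of the Arp2/3 complex, had 1375 FPKM in No-SCI and 1391 FPKM in SCI. Its log2 ratio of 0.02 was the smallest in size of the 10. It changed sign to −0.15 when both groups were scaled to the same median FPKM of the ubiquitous genes. Of the 9 other Arp2/3 complex genes, 6 were higher and 3 lower in SCI, 5 of them at least 1.3-fold higher and 1 at least 1.3-fold lower. In percent, 55.6% were at least 1.3-fold higher and 11.1% lower, against 24.6% and 35.7% of all entries. ARPC1B differed most, with 332 FPKM in No-SCI and 886 FPKM in SCI, a log2 ratio of 1.42. Its paralog ARPC1A had 291 and 399 FPKM, a log2 ratio of 0.46, so the ratio of ARPC1B to ARPC1A went from 1.14 to 2.22. ARPC3 had 60.4 and 96.2 FPKM, a log2 ratio of 0.67. The variant subunit ARPC5L was the most abundant of these 9 genes, with 1155 and 1087 FPKM, and lay below 1 in ratio like ACTR3, whose log2 ratio was −0.23. ACTR3B, a variant of ACTR3 known from brain, had 26.8 and 11.8 FPKM, a log2 ratio of −1.18. The 9 other genes ran from −1.18 to 1.42 with a median of 0.46, and ARPC2 lay below 6 of them.

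**Figure D2:**
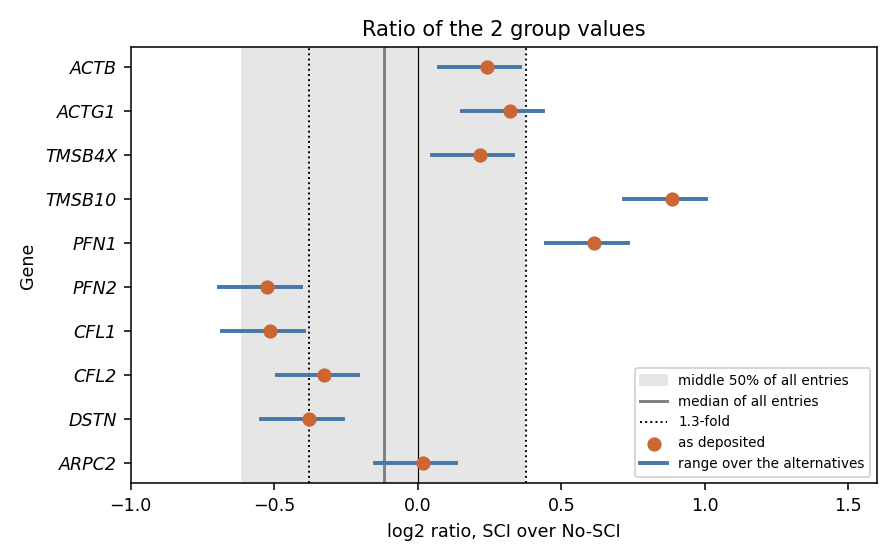
log2 ratio of SCI over No-SCI for each of the 10 genes as deposited (points), with the range over the pseudocounts and scalings tried (lines). The grey band is the middle 50% of all entries, the grey line their median of −0.12, and the dotted lines mark 1.3-fold. TMSB10 and PFN1 lie above 1.3-fold over their whole range, PFN2 and CFL1 lie below it, and ARPC2 is the only gene whose range crosses 0.

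Taking 1.3-fold as the limit, 2 of the 10 genes were higher in SCI (TMSB10 and PFN1) and 2 were lower (PFN2 and CFL1). Of all entries 24.6% were at least 1.3-fold higher and 35.7% at least 1.3-fold lower. Among entries with a mean of at least 100 FPKM, a limit chosen after the values were seen, the shares were 29.5% and 27.4%. The counts of 2 higher and 2 lower among 10 genes are each below these shares, so the 10 genes as a group were not past this limit more often than other entries. The genes just outside the limit were DSTN and CFL2 on the lower side and ACTG1 on the higher side, and those just inside it were CFL1 and PFN2, at −0.51 and −0.52, on the lower side and PFN1, at 0.61, on the higher side. The median log2 ratio of the 10 genes was 0.12, against −0.12 for all entries and 0.04 for entries with a mean of at least 100 FPKM. Centring the median of all entries at 0 moves every log2 ratio up by 0.12, with which ACTG1 passes 1.3-fold at 0.44.

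**Figure D3:**
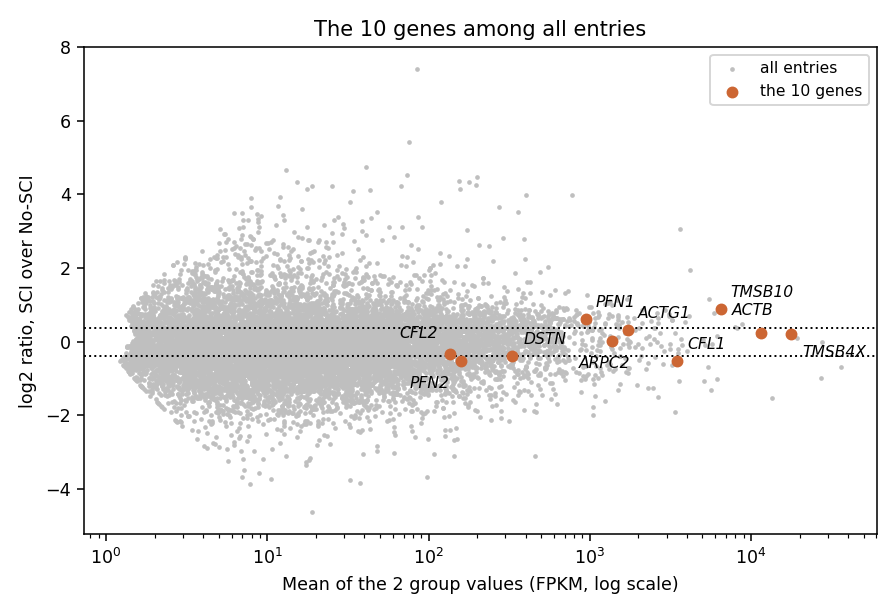
log2 ratio of SCI over No-SCI against the mean of the group values (FPKM, log axis) for all 12771 entries (grey) and the 10 genes (orange), with dotted lines at 1.3-fold. The 10 genes lie on the right, above 100 FPKM, and between −0.52 and 0.89 in log2 ratio, within the spread of the other entries at their level.

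The families can also be described by the share of each gene in the summed FPKM of its family. ACTB made up 87.3% of the actins in No-SCI and 86.7% in SCI. CFL1 made up 88.8% of the cofilins in No-SCI and 87.7% in SCI, with DSTN at 7.98% and 8.66% and CFL2 at 3.24% and 3.66%. In these 2 families the shares were nearly constant. TMSB10 went from 21.8% to 30.7% of the 2 thymosins, and PFN2 from 20.1% to 10.2% of the 2 profilins. In these families the totals were 1.31-fold higher for the thymosins and 1.36-fold higher for the profilins. Thymosins exceeded actins 1.73-fold in No-SCI and 1.90-fold in SCI, and the ratio of TMSB4X to ACTB was nearly the same in both groups, 1.55 and 1.52.

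**Figure D4:**
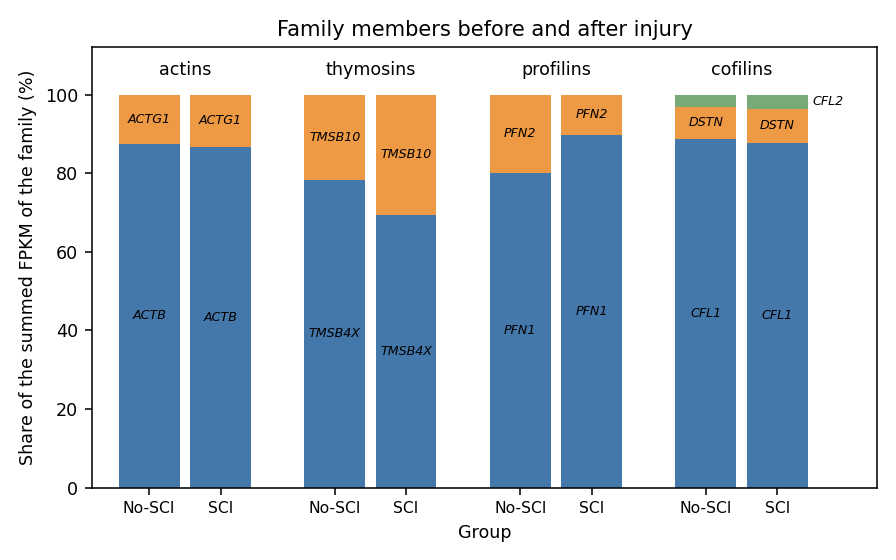
Share of each gene in the summed FPKM of its family (%, stacked to 100) in No-SCI and SCI for the actins, thymosins, profilins and cofilins, 1 value per group. The bars of the actins and cofilins are nearly alike in the 2 groups. The share of TMSB10 is larger in SCI and that of PFN2 smaller.

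Other genes of actin assembly were followed in 12 lists by role, which hold 152 genes, 124 of them in the table. Of these 124, 44 were higher and 80 lower in SCI, 28 were at least 1.3-fold higher and 55 at least 1.3-fold lower, and their median log2 ratio was −0.30. In percent, 35.5% were higher and 64.5% lower, against 43.7% and 56.3% of all entries. At 1.3-fold the shares were 22.6% higher, slightly under the 24.6% of all entries, and 44.4% lower, against 35.7%. No test stands behind these shares. The lists had different medians. All 4 tropomyosin genes, whose products coat and stabilise filaments, were higher, 3 of them at least 1.3-fold. TPM3 was the most abundant with 5776 FPKM in No-SCI and 6472 FPKM in SCI, TPM1 had 1513 and 2729 FPKM, and TPM2 had the largest log2 ratio, 1.04. Of 7 nonmuscle myosin II genes 4 were higher and 3 lower. The light chains MYL6 and MYL12A had log2 ratios of 0.77 and 1.16, from 4366 and 1057 FPKM in No-SCI, while the heavy chains MYH10 and MYH14 had −0.36 and −0.92. Of 14 crosslinking genes, TAGLN2 (log2 ratio 0.66) and DBN1 (0.51) were higher, and TAGLN3, a neuronal relative of TAGLN2, was lower, from 800 to 366 FPKM with a log2 ratio of −1.13. The median of the crosslinking list, −0.08, changes sign under median centring and with a shared upper quartile.

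Of all entries 35.7% were at least 1.3-fold lower. The lists of genes that start, cap or anchor filaments each had a larger share, except the Arp2/3 complex. In that list 11.1% were at least 1.3-fold lower and 55.6% at least 1.3-fold higher. These shares were not tested. Of 15 formins and other nucleators 9 (60.0%) were at least 1.3-fold lower and 3 at least 1.3-fold higher, with a median log2 ratio of −0.76. The formin FMNL1 went from 60.3 to 14.2 FPKM (log2 ratio −2.09) and DAAM1, a formin of Wnt signalling, from 79.9 to 32.5 FPKM (−1.30), whereas ENAH, an Ena/VASP protein of filament tips, was higher with 47.3 and 71.8 FPKM. Of 17 activators of the Arp2/3 complex 9 (52.9%) were at least 1.3-fold lower and 3 higher, with a median log2 ratio of −0.40. WASHC2C and ABI1 were their most abundant genes, with log2 ratios of −0.92 and −0.57, and BAIAP2 had the largest positive one, 0.84. Among 14 capping and severing genes, 8 (57.1%) were at least 1.3-fold lower and 2 higher. CAPG, a capping protein prominent in macrophages, was 4.09-fold higher, from 218 to 891 FPKM, while ADD1 and TMOD2, which cap filaments of the membrane skeleton, had log2 ratios of −1.01 and −1.11. The list of membrane linkers and spectrins had a median of −0.90, the lowest of the lists for the deposited values, with 7 of 9 genes (77.8%) at least 1.3-fold lower. The 3 muscle actins, at −0.87, had a lower median than this list with 1 subtracted (−2.09 against −0.92) and a lower mean (−1.48 against −0.87). ANK2, an ankyrin that ties spectrin to the membrane, went from 820 to 95.2 FPKM (log2 ratio −3.11), and RDX was the exception, 2.05-fold higher.

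Other lists held genes that act on the same subunit pool or on cofilin. Of 7 other genes of subunit-binding or related proteins 5 (71.4%) were at least 1.3-fold lower and none was at least 1.3-fold higher, with a median log2 ratio of −0.57. CAP1, cyclase-associated protein, which helps cofilin recycle subunits, went from 539 to 294 FPKM, and its relative CAP2 from 33.9 to 7.60 FPKM (log2 ratio −2.16). CNN3, a calponin that binds filaments, went from 2138 to 1296 FPKM. Of 20 genes that control cofilin or take filaments apart 3 were at least 1.3-fold higher and 7 at least 1.3-fold lower, and the median was −0.26. The share of 7 in 20 is about that of all entries, 35.7%. LIMK2, a kinase that inactivates cofilin, had a log2 ratio of −0.86, and SSH1, a phosphatase that activates it, had 0.55 at the low level of 10.5 FPKM in No-SCI. Their relatives differed less: LIMK1 had 0.19, SSH2 0.15 and SSH3 −0.06, the last at 61.7 FPKM in No-SCI. GMFB, a relative of cofilin that acts on Arp2/3 branches, had the lowest log2 ratio of this list, −1.62.

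**Figure D5:**
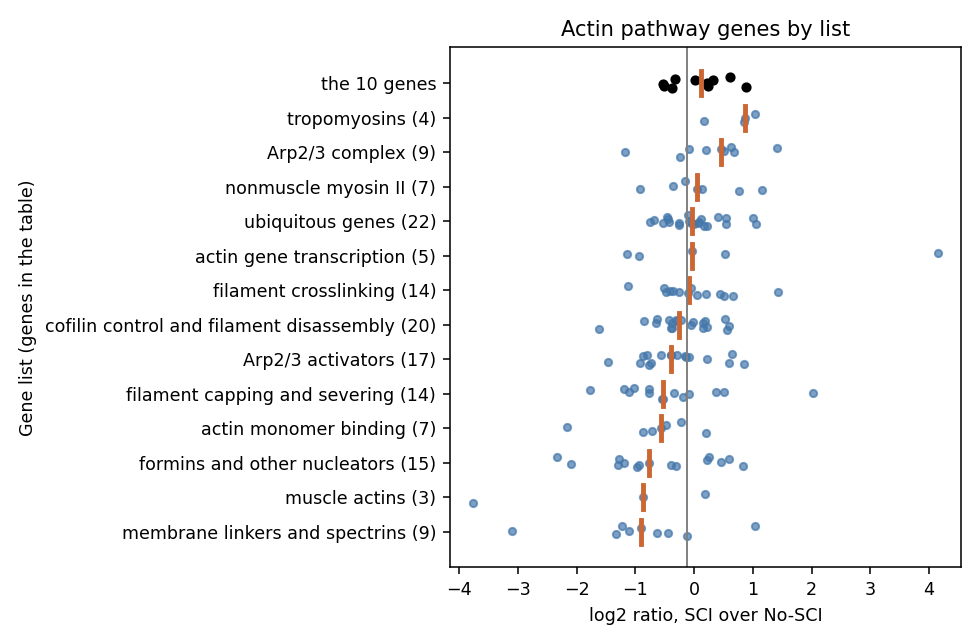
log2 ratio of SCI over No-SCI for the genes of each list (blue points, number in the table in brackets), the list medians (orange bars), the 10 genes (black) and the median of all entries (grey line). The tropomyosin list has the highest median of the lists, 0.86, and the list of membrane linkers and spectrins the lowest for the deposited values, −0.90.

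The transcription of actin genes is controlled by SRF, a factor whose coactivator MRTFA is itself held back by free actin subunits. SRF had 3.76 FPKM in No-SCI and 5.43 FPKM in SCI, and MRTFA 6.75 and 6.56 FPKM, both low in the table. FHL2, a LIM protein that binds SRF, had 16.8 FPKM in No-SCI and 298 FPKM in SCI, a log2 ratio of 4.15. VCL, which encodes the adhesion protein vinculin and is itself a known SRF target, went the other way, with 37.9 and 17.1 FPKM and a log2 ratio of −1.15. The 5 listed genes of this list had a median of −0.04, whose sign changes under median centring, a shared upper quartile and equal totals. With a mean of at least 10 FPKM it was −0.94.

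SRF binds a 10-base element named the CArG box, searched here on both strands as CC, then 6 bases that are each A or T, then GG, with no mismatch. Promoter sequences of RefSeq (build GRCr8) matched 9 of the 10 genes, and ACTB had no entry. In the 250 bases before the start site, 1 of the 9, ACTG1, holds a CArG box, as do 1.5% of the 33469 promoters. ACTA1 and both FHL2 promoters hold one too, and ACTA2 and ACTC1 hold no exact match in this window, where elements that depart from the pattern by a base were not searched. The GC box GGGCGG was found on either strand in 8 of the 9, in all but TMSB4X, and in 30.5% of all promoters, and TATAAA in none of the 9 and in 12.9% of all promoters. The CArG box starts 90 bases before the start site in ACTG1 and 94 bases before it in ACTA1. Below are the 120 bases before the start site, on the strand of the gene, with the CArG box in capitals for the 2 actins and FHL2, and with the GC box in capitals for TMSB10, the gene with the largest relative increase, and CFL1, the most abundant one that was lower.
ACTG1 (chr10:106120952-106121071, minus strand): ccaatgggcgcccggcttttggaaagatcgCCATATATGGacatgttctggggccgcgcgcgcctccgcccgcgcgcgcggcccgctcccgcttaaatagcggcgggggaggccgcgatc
ACTA1 (chr19:68784195-68784314, minus strand): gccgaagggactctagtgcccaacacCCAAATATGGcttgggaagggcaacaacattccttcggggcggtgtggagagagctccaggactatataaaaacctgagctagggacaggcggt
FHL2 (chr9:52954541-52954660, minus strand): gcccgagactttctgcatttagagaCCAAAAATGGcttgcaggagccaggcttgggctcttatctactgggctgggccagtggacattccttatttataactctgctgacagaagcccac
TMSB10 (chr4:106569141-106569260, minus strand): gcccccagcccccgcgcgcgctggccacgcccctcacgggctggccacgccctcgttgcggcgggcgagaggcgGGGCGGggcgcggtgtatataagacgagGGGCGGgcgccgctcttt
CFL1 (chr1:212227004-212227123, plus strand): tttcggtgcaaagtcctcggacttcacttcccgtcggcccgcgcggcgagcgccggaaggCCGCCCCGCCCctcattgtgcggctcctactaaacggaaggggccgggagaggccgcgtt
These coordinates belong to GRCr8, whereas the FPKM values were made on rn6. ACTG1 and FHL2, with a CArG box, were higher in SCI and ACTA1, also with one, was lower. A match of letters is a description of the sequence and not a measured binding site.

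Markers of the cell types of the cord moved in the same comparison. Among all entries 43.7% were higher and 56.3% lower, with 24.6% and 35.7% past 1.3-fold. Oligodendrocyte and neuronal markers, which define spinal cord tissue, were listed, while GFAP, AQP4, MBP and SNAP25 had no entry. All 8 meningeal fibroblast markers were at least 1.3-fold higher, and their summed value was 134 FPKM in No-SCI and 1041 FPKM in SCI. MGP made up 47.5 and 757 FPKM of these sums. The lowest of the 8 had 1.87 FPKM in No-SCI, near the lowest value of all entries, 1. All 7 listed oligodendrocyte markers were at least 1.3-fold lower, from 51897 to 29872 FPKM in sum, as were all 4 listed astrocyte markers, from 167 to 64.0 FPKM. MOBP made up 44200 and 27648 FPKM of the oligodendrocyte sums. Of 12 microglia and macrophage markers 5 were at least 1.3-fold higher and 5 lower, and their sum was 1001 FPKM in No-SCI and 1113 FPKM in SCI. The vessel and blood lists had higher sums in SCI although their members went both ways. Of 5 endothelial markers 2 were higher and 3 lower, and the sum went from 26.1 to 31.5 FPKM with CDH5 at 3.85 and 11.7 FPKM. Of 7 mural markers 4 were higher and 3 lower, with 2 and 3 past 1.3-fold, and TAGLN made up 383 and 517 FPKM of sums of 438 and 559 FPKM. Of 6 blood markers 2 were higher and 4 lower, with 2 and 3 past 1.3-fold, and HBB made up 490 and 464 FPKM of sums of 584 and 631 FPKM. The part of these cells in the values of TMSB10, PFN1, CFL1 and the other actin genes was not tested.

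Several of the 10 genes have close copies in the rat genome. RefSeq names 51 loci after 7 of the genes (40 pseudogenes and 11 coding copies), among them 13 for ACTG1, 12 for CFL1, 11 for ACTB and 10 for TMSB10, and none for PFN1, PFN2 and ARPC2. None of these loci has an entry of its own symbol in the table. Reads of such copies could have been counted for the named gene or lost, so the levels of the actins, thymosins and CFL1 carry that uncertainty. How the authors' counting treated them is not given in the sources used here.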

How the data were processed

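RNA of the supernatant of digested rat spinal cord was sequenced from stranded libraries after removal of ribosomal RNA. The authors thinned all libraries to equal read numbers, used STAR 2.5.4b for alignment to rn6, and obtained FPKM from Cuffdiff 1.3.0, scaled by the upper quartile. Each group has 1 deposited FPKM value per gene, with none below 1. The authors' p-values, q-values, significance calls and fold changes of SCI against No-SCI stand in other columns and were not used. Columns left without a group numbered 0.

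The 2 values of a gene were turned into a log2 ratio (SCI over No-SCI, pseudocount 0), along with ranks, percentiles, family shares and list medians. A gene counted as past the limit at 1.3-fold, the minimum in the study's methods. For the 13 symbols listed more than 1 time the one with the higher mean was kept. All 10 genes are named, and of each list the 2 most abundant genes and, at a mean of at least 10 FPKM, the 2 extremes of log2 ratio on each side could be named. ARPC1A, ACTC1, PFN3, LIMK1, SSH2, SSH3, COL1A1 and MYH4 (both given without their names), SRF, MRTFA, TMSB15B2 and GAPDH were added after their values were seen. The genes and lists were chosen with earlier results of these data known. Promoters and symbols came from RefSeq (GRCr8), whose symbols match 11974 of 12758. The ratio and count steps were tested on simulated data. The alternatives were pseudocounts of 1 and 0.1, subtraction of 1, 4 scalings, summed entries, folds of 1.5 and 2, minimum means of 10 and 100 FPKM and list means. Python 3.11.15, numpy 2.4.6, pandas 2.3.3 and matplotlib 3.10.9 were used. Some genes of the pathway are not reported here.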

Additional observations from a re-analysis of the deposited data

How the results depend on the processing

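With 1 value per group no library could be left out, and no paired analysis was possible because the table holds no value for a single library. The alternatives kept the direction of every one of the 10 genes except ARPC2. It went from 0.02 to −0.15 when both groups were scaled to the same median FPKM of the ubiquitous genes. TMSB10 ranged from 0.72 to 1.003, PFN1 from 0.45 to 0.73, PFN2 from −0.69 to −0.41 and CFL1 from −0.68 to −0.40 in log2 ratio, past 1.3-fold in each case. ACTG1 passed 1.3-fold at 0.44 with median centring and at 0.42 with a shared upper quartile. DSTN passed it at −0.38 with 1 subtracted and at −0.54 with the ubiquitous median, and CFL2 at −0.49 with the latter. With the ubiquitous median 4 of the 10 genes were thus past 1.3-fold lower, as were 5691 of the 12771 entries. At 1.5-fold 2 of the 10 genes were past the limit upward and 0 downward, against 2159 and 3361 of the 12771 entries. At 2-fold 0 were past it in either direction for the deposited values, while TMSB10 passes 2-fold with median centring at 1.003. The counts of all entries were 1016 higher (7.96%) and 1539 lower (12.1%) at 2-fold. At 1.3-fold they were 1961 and 2737 with a mean of at least 10 FPKM, for which no share was computed. With a mean of at least 100 FPKM, added after the values were seen, they were 570 (29.5%) and 529 (27.4%) of 1933. The filters on the mean leave fewer entries, so these counts cannot be set directly against those of all entries.

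Some list medians past 1.3-fold fell short of it. The median of the Arp2/3 activators was −0.30 with a pseudocount of 1, −0.28 with median centring, −0.35 with equal totals and −0.30 with a shared upper quartile. Their mean was −0.31, and their median at a mean of at least 10 FPKM −0.30. The Arp2/3 complex list had 0.29 with the ubiquitous median and 0.26 as a mean. The capping and severing list had −0.36 at a mean of at least 10 FPKM. In the other direction, the list of cofilin control and filament disassembly, at −0.26 as deposited, passed 1.3-fold in 2 settings. It had −0.42 with the ubiquitous median and −0.384 at a mean of at least 10 FPKM. List medians near 0 changed sign. The crosslinking list went to 0.036 with median centring and 0.022 with a shared upper quartile, and the list of ubiquitous genes from −0.03 to 0.085 and 0.071 in these 2, 0.013 with equal totals and 0.0076 as a mean. The transcription list went to 0.075 with median centring, 0.061 with a shared upper quartile, 0.0030 with equal totals and 0.51 as a mean, and it went down to −0.21 with the ubiquitous median and to −0.94 with a mean of at least 10 FPKM. With that minimum the muscle actins, then ACTA1 alone at −3.76, and the transcription list lay below the membrane linkers and spectrins at −0.76. The nonmuscle myosin list went from 0.05 to −0.12 with the ubiquitous median. That scaling matches the median FPKM of the ubiquitous genes, 489 in No-SCI and 549 in SCI, and not their median log2 ratio. It lowered all log2 ratios by the same amount. The median of all entries went to −0.28 and that of the ubiquitous genes from −0.03 to −0.20.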

Other observations

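ACTB is often used as a reference gene for RNA levels, and GAPDH and PPIA are used in the same way. In these values ACTB had a log2 ratio of 0.24, GAPDH of −0.11 (2853 FPKM in No-SCI, 2643 FPKM in SCI) and PPIA of 0.40 (6897 and 9099 FPKM). ACTB stood at 3.70 times GAPDH in No-SCI and 4.72 times in SCI, and at 1.53 and 1.37 times PPIA, so ACTB would be read as higher against the first and lower against the second. Of 22 listed genes that nearly all cells use, 10 were higher and 12 lower, with log2 ratios from −0.75 for SDHA to 1.05 for LDHA and a median of −0.03. The spread between animals of any of these ratios is unknown.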
